A study of Mus musculus with 2 samples.

Results

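The prostaglandin and leukotriene pathway was read from 10 genes chosen by name: the cyclooxygenase genes Ptgs1 and Ptgs2, the terminal synthase genes Ptges, Ptgis and Ptgds, the lipoxygenase genes Alox5, Alox12 and Alox15, the 5-lipoxygenase partner gene Alox5ap and the receptor gene Ltb4r1. Probes were taken where the platform annotation gave a single gene symbol, and probes of the same gene were averaged. Of the 10 genes, 9 were measured, by 11 probes, among 22180 genes in all. Ptgs1 had no probe listed under its symbol or its gene identifier and has no value here.

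RNA came from the back skin of female mice of the dermatitis-prone inbred strain NC/Nga. The group labelled ZAG had dermatitis induced with an ointment of Dermatophagoides farinae (house dust mite) body extract and received recombinant ZAG (zinc-alpha-2-glycoprotein, a secreted protein known for mobilising lipid) on the skin. The group labelled control had the same induced dermatitis. Housing began at an age of 6 weeks, both agents were applied 2 times a week over 6 weeks, and the sampled mice were 13 weeks old. Per the design text there were 3 mice per group and ZAG was used at 1 µg/mL, but the table holds 1 column per group. The sources used here do not say whether that column stands for 1 mouse, pooled mice or averaged arrays, nor what control mice received in place of ZAG. Skin without dermatitis is not analysed here.

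With 1 array per group there is no replicate error and no test, and each difference describes these 2 arrays. The values are log2 signals, which ran from 0.866 to 13.2 on the ZAG array and from 0.889 to 12.8 on the control array. Background was gauged from 1390 olfactory and vomeronasal receptor genes, which skin is not known to express strongly: the 95th percentile of their means over both arrays was log2 3.16, and no fold is printed for genes under it on both arrays. As a scale for probe error, probes of the same gene differed in their ZAG minus control value with a pooled SD of 0.244 over 591 genes. That SD does not cover differences between mice. The tissue label was checked against 7 measured keratinocyte markers, all above the gauge on both arrays, with Krt10 at log2 12.2 on each array.

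Prostaglandins and leukotrienes are lipid mediators made from arachidonic acid after phospholipases release it from membranes. Cyclooxygenases turn it into an unstable intermediate that terminal synthases convert to prostaglandin E2, prostaglandin D2, prostacyclin and related products. 5-lipoxygenase, presented with its substrate by the protein encoded by Alox5ap, starts leukotriene synthesis, and other lipoxygenases give hydroxylated fatty acids that also serve the epidermal barrier. In inflamed skin these mediators are known for widening vessels, drawing in leukocytes and causing itch and pain.

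Ptgs2 had the largest difference among the measured members, and its promoter is shown because that gene carries the main result. The sequence is from RefSeq (GRCm38.p6, plus strand, chr1:150099781-150100030) and covers the 250 bases before the RefSeq start. Capitals mark a C/EBP-type site, searched as TTGCGCAA, which reads the same on both strands.
Ptgs2: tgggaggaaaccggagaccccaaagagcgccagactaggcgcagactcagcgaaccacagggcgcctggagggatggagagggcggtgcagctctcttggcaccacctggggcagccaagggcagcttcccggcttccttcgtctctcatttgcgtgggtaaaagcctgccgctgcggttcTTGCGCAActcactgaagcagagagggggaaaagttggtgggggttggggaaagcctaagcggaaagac

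Just after the RefSeq start, at chr1:150100035-150100060 on the plus strand, lies a cyclic AMP response element core, searched as TGACGT on both strands. It overlaps an E-box, searched as CACGTG, and capitals mark the joint stretch.
Ptgs2 CRE and E-box: tcaccactACGTCACGTGgagtccgc

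The C/EBP-type letters occurred in 0.183% of 32851 RefSeq promoter windows (250 bases before to 50 after a start), the TGACGT letters in 7.51% and the CACGTG letters in 7.15%. Promoter windows were listed for 7 of the 10 genes (Ptgs1, Ptgs2, Ptges, Ptgds, Alox5, Alox12 and Ltb4r1), and of these 1, that of Ptgs2, held each of the 3 motifs. The TATA box letters TATAAA, searched on both strands too, were in 0 of the 7 windows and in 13.6% of all windows. The shares cannot be compared between motifs, since the C/EBP-type search took 8 exact letters and the other searches 6. The motifs were picked by hand and not found by a search over motifs. Their presence in the Ptgs2 window is therefore no result that sets Ptgs2 apart from the other members. These matches describe letters in a window and not binding.

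Of the measured cyclooxygenase and prostanoid synthase genes, Ptgs2 was lower and Ptgds higher in ZAG-treated skin. Ptgs2 encodes the cyclooxygenase that inflammation induces and had a log2 signal of 4.52 on the ZAG array and 6.43 on the control array. Both values were above the background gauge, and the log2 difference of -1.91 corresponds to a 3.77-fold lower signal with ZAG. It stood at rank 26 from the lowest difference among the 14055 genes above the gauge on at least 1 array. In bulk skin, fewer cells that express a gene and less RNA per cell cannot be told apart, here and for the genes below.

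Ptgs2 was the single member with a difference of at least 2-fold. With the gauge as floor, 1 of the 9 measured members was 2-fold or more lower on the ZAG array, beside 0.609% of 22180 genes. By the same rule 0 members were higher, beside 0.153% of genes. At 1.5-fold, 1 member was lower (Ptgs2), beside 2.79% of genes, and 1 was higher (Ptgds), beside 1.46%. The median log2 difference over the 9 members was -0.23, with 6 lower and 3 higher, beside a median of 0.011 over all genes, where 10629 were lower and 11491 higher. The value of -0.23 is that of Alox5. Alox5 and Alox15 among the 6 lower members, and Ptgis among the 3 higher, differed by less than the probe SD. The member median was -0.39 with the brightest probe per gene, and also over the 7 members whose mean level reached the median level of all genes.

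**Figure D1:**
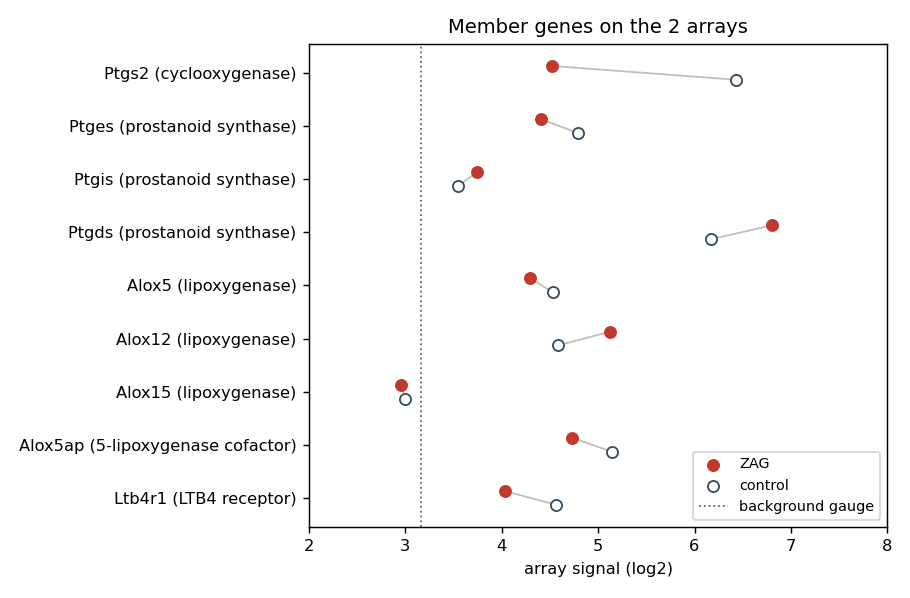
Log2 array signal (horizontal axis) of the 9 measured member genes on the ZAG array (filled points, upper in each pair) and the control array (open points), with the background gauge of 3.16 as a dotted line. Ptgs2 shows the widest gap, at 4.52 with ZAG and 6.43 in control, and Alox15 lies below the gauge on both arrays.

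The terminal synthase genes did not share a direction. Ptgds encodes lipocalin-type prostaglandin D synthase and had a log2 signal of 6.81 on the ZAG array and 6.17 on the control array. The log2 difference of 0.64 (1.55-fold higher with ZAG) was the largest positive one among the members and stood at rank 241 from the highest of 14055. Ptges encodes the inducible microsomal prostaglandin E synthase, which is known to work in tandem with the Ptgs2 product. Its log2 signal was 4.40 with ZAG and 4.79 in control, a difference of -0.39, or 1.31-fold lower. Ptgis, the prostacyclin synthase gene, was at 3.74 with ZAG and 3.54 in control, not far above the gauge. Its difference of 0.20 was smaller than the probe SD of 0.244, which was estimated on brighter genes.

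Hpgds, the gene of the other prostaglandin D synthase, known from mast cells and other blood-derived cells, is no member but stands beside Ptgds. It had a log2 signal of 5.35 with ZAG and 5.93 in control, a difference of -0.58. The 2 prostaglandin D synthase genes thus differed in opposite directions on these arrays.

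Of the 3 lipoxygenase genes, Alox12 was higher with ZAG, Alox5 was slightly lower and Alox15 was not above background. Alox12, the platelet-type 12-lipoxygenase gene, which the epidermis is known to express too, had a log2 signal of 5.13 on the ZAG array and 4.58 on the control array. The log2 difference of 0.54 (1.46-fold higher) stood at rank 416 from the highest. Alox15 encodes the leukocyte-type 12/15-lipoxygenase of the mouse and was at 2.95 with ZAG and 3.00 in control. Neither value reached the gauge, and no fold is given.

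Alox5, the gene of 5-lipoxygenase, was read by a pair of probes that did not give the same picture. One was at log2 4.23 on both arrays, with a difference of 0.0036, and the other was at 4.36 with ZAG and 4.83 in control, a difference of -0.47. Their mean difference of -0.23 was smaller in size than the probe SD, which describes a single probe and not a mean.

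The partner and receptor genes of the leukotriene branch were both lower with ZAG, by less than 2-fold. Alox5ap was lower by both of its probes. The brighter was at log2 6.63 with ZAG and 7.08 in control, a difference of -0.46. The dimmer was at 2.84 with ZAG, below the gauge, and at 3.20 in control, a difference of -0.36. The gene mean differed by -0.41 (1.33-fold lower, rank 1306 from the lowest).

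Ltb4r1 encodes BLT1, the high-affinity leukotriene B4 receptor that guides neutrophils and other leukocytes. Its log2 signal was 4.03 with ZAG and 4.57 in control, and the difference of -0.54 (1.45-fold lower) stood at rank 763 from the lowest. The Alox5ap and Ltb4r1 differences were larger in size than the probe SD, and whether they exceed the spread between mice cannot be shown with 1 array per group.

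**Figure D2:**
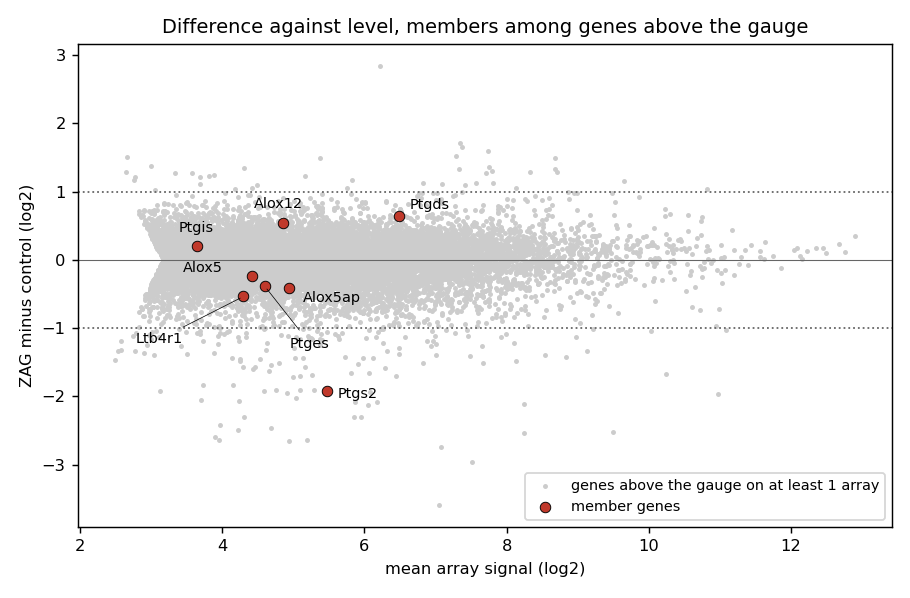
ZAG minus control log2 difference (vertical axis) against mean log2 signal (horizontal axis) for 14055 genes above the background gauge on at least 1 array (grey) and the 8 member genes among them (red), with dotted lines at 2-fold. Ptgs2, at -1.91, is the one member past a dotted line, and the others lie between -0.54 and 0.64.

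Other genes of the pathway, 56 by name in 7 role groups, showed no common direction. Of these, 50 were measured, 26 lower and 24 higher with ZAG, with a median log2 difference of -0.021 beside 0.011 over all genes. Among the 50, 2 were at least 2-fold lower (Slco2a1 and Pla2g4e) and 1 at least 2-fold higher (Akr1c18), beside the 0.609% and 0.153% of all genes. The genes without a probe of their own symbol were Pla2g4b, Akr1b3, Ptger1, Ptgdr2, Ggt1 and Ltb4r2.

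Among 13 measured genes of phospholipases, which include those that release arachidonic acid, 9 were higher and 4 lower, with a median log2 difference of 0.11. Of the 9 higher, Pla2g2d, Pla2g2f, Pla2g3, Pla2g5 and Pla2g6 differed by less than the probe SD, and Pla2g10 was below the gauge in control. Pla2g4a, the gene of the main arachidonate-releasing cytosolic phospholipase, was at log2 6.43 with ZAG and 6.11 in control, a difference of 0.32. Pla2g2e, the gene of a secreted phospholipase, was at 5.93 with ZAG and 5.62 in control (0.31).

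Pla2g4e, whose product is known for making N-acylated phospholipids rather than for releasing arachidonic acid, was at 5.26 with ZAG and 6.70 in control, a log2 difference of -1.44 (2.71-fold lower). Pla2g7, the gene of the enzyme that inactivates platelet-activating factor, was at 5.22 with ZAG and 5.93 in control (-0.71). The 2 most negative differences of this group were thus in genes whose products are not known chiefly for arachidonate release. The remaining lower genes were Pla2g4d and Pla2g4f. Pla2g4d was at 2.97 with ZAG, below the gauge, and 3.48 in control, at least 1.24-fold lower. Pla2g4f differed by -0.17, less in size than the probe SD.

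Of the 7 other measured prostanoid synthase genes, 4 were higher and 3 lower, with a median log2 difference of 0.048. Akr1c18, an aldo-keto reductase gene best known in the mouse for inactivating progesterone, was at 8.66 with ZAG and 7.60 in control, a difference of 1.06 (2.08-fold higher). Ptges2, the gene of another prostaglandin E synthase, differed by 0.22, and Ptges3, which also encodes the co-chaperone p23, by -0.12. The thromboxane synthase gene Tbxas1 was below the gauge on both arrays.

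Of 5 genes that carry or break down prostaglandins, 3 were higher and 2 lower. Slco2a1, the most negative of the other pathway genes, encodes the prostaglandin transporter that takes prostaglandins into cells. Its log2 signal was 6.06 on the ZAG array and 7.57 on the control array, a difference of -1.51 (2.84-fold lower). Abcc4, the gene of an exporter of prostaglandins, was at 4.75 with ZAG and 5.34 in control (-0.60).

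Hpgd encodes 15-hydroxyprostaglandin dehydrogenase, the first enzyme of prostaglandin breakdown. It was at 7.997 with ZAG and 7.28 in control, a log2 difference of 0.71 (1.64-fold higher). Ptgr2, a prostaglandin reductase gene of the next step, was at 5.89 with ZAG and 5.41 in control (0.48), and Ptgr1 differed by 0.16. On these 2 arrays all 3 measured breakdown genes were higher with ZAG, Ptgr1 by less than the probe SD, beside 11491 higher of 22180 genes.

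The 7 measured prostanoid receptor genes differed little, with 3 higher, 4 lower and a range of log2 differences from -0.30 to 0.39. Ptger4, the gene of the EP4 receptor for prostaglandin E2, was at 5.74 with ZAG and 5.35 in control (0.39). Ptger3, the EP3 receptor gene, differed by -0.22, the prostaglandin F receptor gene Ptgfr by 0.19 and the thromboxane receptor gene Tbxa2r by -0.30. Ptger2 and the prostaglandin D2 receptor gene Ptgdr were below the gauge on both arrays.

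Downstream of 5-lipoxygenase, 8 of 9 measured genes of leukotriene synthesis, export and turnover were lower, with a median log2 difference of -0.15, beside 10629 lower of 22180 genes. Of these 8, 6 differed by less than the probe SD. The genes of the enzymes that commit the pathway to leukotriene B4 and C4 had close to equal signals on the arrays. Lta4h was at 6.84 with ZAG and 6.89 in control (-0.056), and Ltc4s was at 4.39 with ZAG and 4.43 in control (-0.038). Dpep2, the gene of a dipeptidase that trims leukotriene D4, differed by -0.56, the mean of probes at -0.21 and -0.91. Cyp4f18, known in mouse neutrophils for inactivating leukotriene B4, was at 2.59 with ZAG and 3.27 in control, a difference that the gauge limits to at least 1.07-fold lower. Mgst3, a microsomal glutathione transferase gene, was the one higher member of the group (0.56).

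Of 5 measured receptor genes for leukotrienes and other lipid mediators, 3 were below the gauge on both arrays (Cysltr2, Oxgr1 and Fpr2). Cysltr1, the gene of a receptor for cysteinyl leukotrienes, was at 3.79 with ZAG and 3.56 in control (0.23). Cmklr1, the chemerin receptor gene, was at 2.98 with ZAG and 3.77 in control, at least 1.53-fold lower since the ZAG value was below the gauge.

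Of the 4 other epidermal lipoxygenase genes, 2 were higher and 2 lower. Alox8, the mouse 8-lipoxygenase gene, was at log2 6.72 with ZAG and 6.22 in control (0.51), and Alox12e, the epidermal 12-lipoxygenase gene, was at 6.39 with ZAG and 5.98 in control (0.41). Their differences had the same sign as that of Alox12. Alox12b and Aloxe3, whose products act in sequence on ceramides of the barrier, had negative differences. Alox12b was at 7.85 with ZAG and 8.57 in control (-0.72). Aloxe3 was at 5.77 with ZAG and 5.98 in control (-0.21), a difference smaller in size than the probe SD.

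**Figure D3:**
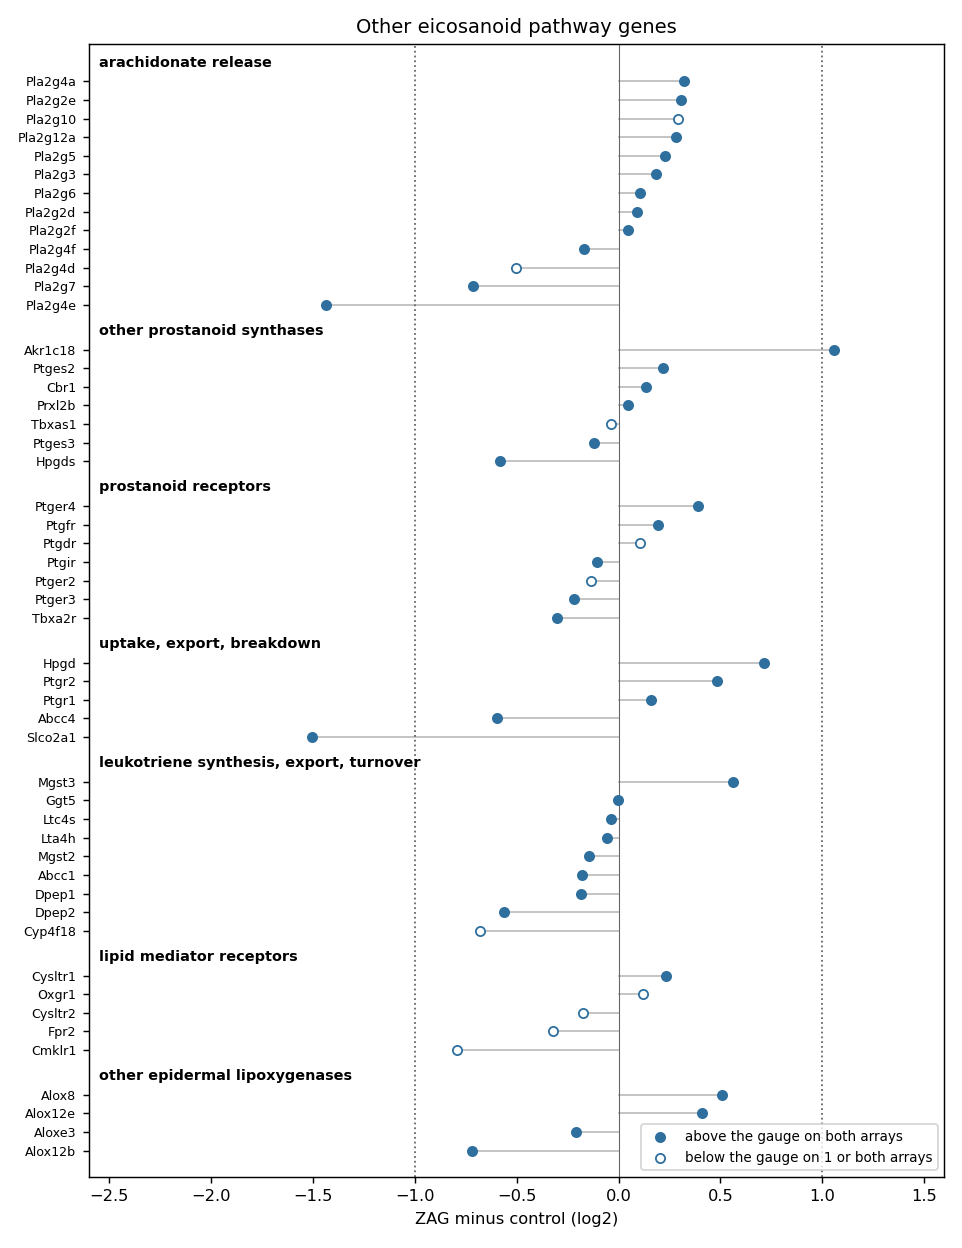
ZAG minus control log2 difference (horizontal axis) of 50 other pathway genes in 7 role groups, filled where both arrays were above the background gauge and open otherwise, with dotted lines at 2-fold. Slco2a1 (-1.51) and Pla2g4e (-1.44) lie past the lower line and Akr1c18 (1.06) past the upper one.

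Marker genes of cell types that are known to express the members also differed between the arrays. For the counts of lower and higher markers here and below, 10629 of all 22180 genes were lower and 11491 higher. Ptgs2 is known to be induced in activated keratinocytes, macrophages and neutrophils. All 6 activated keratinocyte markers were at least 2-fold lower with ZAG, beside 0.609% of all genes, with a median log2 difference of -1.58. The summed linear signal of the 6 was 3902 on the ZAG array and 12028 on the control array. S100a8 (-1.40) and S100a9 (-1.49) were counted in this list and not among the neutrophil markers below. The general keratinocyte markers had a median of -0.16, with 5 of 7 lower, from Krt14 at -0.73 to Ivl at 0.65.

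Of 11 measured macrophage and monocyte markers, 9 were lower, with a median of -0.61 and a summed linear signal of 1551 with ZAG and 2097 in control. Cd14, the endotoxin co-receptor gene, had the lowest difference of that list, -1.94, the chemokine receptor gene Ccr2 had the highest, 0.34, and the macrophage surface gene Adgre1 differed by 0.091. Of 11 neutrophil markers, 6 were lower and 5 higher, with a median of -0.16, and 4 were at least 2-fold lower, beside 0.609% of all genes. Their summed linear signal was 155 with ZAG and 380 in control. The neutrophil granule and surface genes Ly6g, Elane, Ngp and Camp, all counted as higher, were below the gauge on both arrays. Of the 7 neutrophil markers above the gauge on at least 1 array, 6 were lower and 1 (Mpo) higher, with a median of -1.22.

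Ptgs2 is also known as an immediate early gene. Of 12 other immediate early genes, 9 were lower with ZAG, with a median of -0.49, from Nr4a1 at -1.70 to Egr2 at 0.27, and the summed linear signal was 827 with ZAG and 1174 in control. The part of these lists in the Ptgs2 difference was not tested.

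Alox5, Alox5ap, Ltb4r1 and Hpgds are known from leukocytes and mast cells. All 9 mast cell markers were lower, beside 10629 of all 22180 genes, with a median log2 difference of -0.65. Their summed linear signal was 877 with ZAG and 1400.4 in control. The histidine decarboxylase gene Hdc was at 3.16 with ZAG, just under the gauge, and 5.46 in control. T cell markers had a median of -0.097, with 4 of 7 lower. The 5 eosinophil markers (Epx, Prg2, Siglecf, Ccr3 and Il5ra), known from cells that can express Alox15 in other settings, were below the gauge on both arrays, as Alox15 was. The part of these lists in the leukotriene branch was not tested.

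Beside Alox12, the 6 measured platelet markers had a median log2 difference of -0.061, with 4 lower and 2 higher, and a summed linear signal of 103 with ZAG and 106 in control. Beside Ptgis and Slco2a1, which vessels are known to express, 7 of 8 endothelial markers were lower, with a median of -0.36, and 4 of 7 smooth muscle and pericyte markers were higher, with a median of 0.12. Fibroblast markers had a median of -0.52, with 7 of 8 lower. Beside Ptgds and the other higher genes, all 9 hair follicle markers were higher (median 0.63), as were all 6 adipocyte markers (0.43) and 5 of 6 skeletal muscle markers (0.60). The part of these lists in the differences was not tested.

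**Figure D4:**
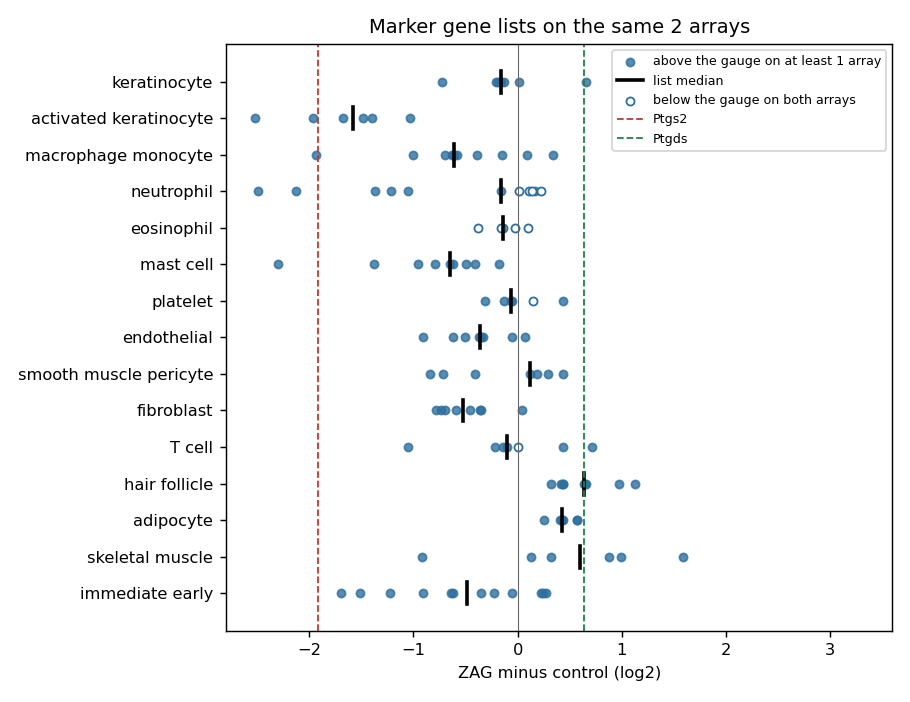
ZAG minus control log2 difference (horizontal axis) of marker genes in 15 lists (points, open where below the background gauge on both arrays), with list medians as black bars and the differences of Ptgs2 (-1.91) and Ptgds (0.64) as dashed lines. The activated keratinocyte list lies lowest, with a median of -1.58, and the hair follicle list highest, with a median of 0.63.

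With 2 arrays, likeness of pattern between genes reduces to likeness of the difference. The 3 genes above the gauge on both arrays whose log2 differences were closest to that of Ptgs2 were Tmprss11a (-1.92), a serine protease gene, Prg4 (-1.90), the lubricin gene, and Ifi202b (-1.90), an interferon-inducible gene. Their values on the ZAG array were 3.63, 4.34 and 4.14, against 5.55, 6.24 and 6.04 on the control array.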

How the data were processed

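The values are the log2 signals the authors deposited, 1 column per group, on 33793 probes. The log2 scale was inferred from their range, and how the signals were corrected, summarised and normalized is not given in the sources. The number of arrays limits the precision, and no p-value was computed. Probes with 1 gene symbol (23521) gave 22180 genes. The 59 members and other pathway genes with a platform gene identifier were all found in the RefSeq gene table (GRCm38.p6), with 0 symbols differing. Probes and measured genes are given without coordinates because the array annotation names no build. The coordinates of the printed Ptgs2 sequences are those of the RefSeq promoter table (GRCm38.p6).

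Differences are ZAG minus control, computed from the deposited log2 signals without rescaling. Calls of at least 2-fold raise values below the background gauge to it, on either array. Summed linear signals add 2 raised to each log2 value. The members, lists and gauge were chosen with earlier results of these data known. Genes named were all members, other pathway genes at least 2-fold different, up to 2 genes each way per role group, up to 1 each way per marker list and the 3 genes closest to a member that differed by at least 2-fold. Further genes were named after their values were seen. Alternatives were median centring, quantile normalization, loess (span 0.3), the brightest probe, other gauges or no floor, a 1.5-fold threshold, filters on level and list means. The code was tested on simulated data. Tools were pandas 2.3.3 and numpy 2.4.6 in Python 3.11.15, with statsmodels 0.14.6 for loess and matplotlib 3.10.9 for plots.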

Additional observations from a re-analysis of the deposited data

How the results depend on the processing

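Median centring, quantile normalization and loess kept the sign of each of the 9 member differences and moved none by more than the SD between probes of one gene. Over these and the brightest probe per gene, Ptgs2 ranged from -1.94 to -1.91, Ptgds from 0.61 to 0.65 and Alox5 from -0.47 to -0.23. The counts of members and other pathway genes at least 2-fold different were the same with the gauge at the 75th or 99th percentile, with no floor, and under both filters on level. At 1.5-fold, 1 member was higher (Ptgds), and 6 other pathway genes were lower and 2 higher, since that threshold admits more genes; of all genes, 2.79% were lower and 1.46% higher. The member median was -0.39 with the brightest probe per gene, and also -0.39 over the 7 members at or above the median level of all genes (log2 3.87). The median of the other pathway genes was 0.021 over the 34 at or above that level and also over the 44 above the gauge on at least 1 array, against -0.021 over all 50, and their mean was -0.066. No paired analysis was possible because each group has 1 array, and no replicate could be left out.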

Other observations

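Some pathway genes are read by probes that carry several gene symbols and were left out above. The probes shared by Ptges3 and its pseudogene Ptges3-ps were at log2 6.85 with ZAG and 6.78 in control and at 9.78 with ZAG and 9.45 in control, so their differences (0.075 and 0.33) had the other sign to that of the probe of Ptges3 alone (-0.12). Probes shared by Pla2g4b and Jmjd7 differed by -0.063 and -0.46, and the probe shared by Ptgdr2, a prostaglandin D2 receptor gene, and Ccdc86 was below the background gauge on both arrays (2.90 with ZAG and 2.80 in control).

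Ptgs2os, a long noncoding RNA gene on the opposite strand, starts 157 bases from the RefSeq start of Ptgs2, and the promoter windows of these genes share 256 bases. Its probe was at 2.66 on both arrays, below the gauge, so no direction is given. It is one of 60 genes whose values were identical on the 2 arrays.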
